A study of Mus musculus with 15 samples.

Results

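The genes described here are 10 genes that mark dendritic cells or control their development, followed in the whole blood of mice: Xcr1, Clec9a, Batf3, Irf8, Flt3, Zbtb46, Cd209a, Siglech, Tcf4 and Ccr9. They were taken by name from the 55416 genes of the count files, after the Ensembl identifiers were matched to gene symbols, and all 10 were found. Blood was drawn by cheek bleed from 15 C57BL/6 mice, 5 per group, and gave 1 RNA library per mouse. The labels give 1 protocol for all mice, orthotopic transplantation of 4MOSC1, a mouse oral squamous carcinoma line, into the tongue and 10 days of growth. Mice of the early ND and late ND groups received 2 doses of αCTLA-4, an antibody that blocks an inhibitory receptor of T cells, and a neck dissection (ND), the surgical removal of the draining lymph nodes of the neck, performed early or late. The third group was untreated and had no surgery. Different passages of the study place the blood draw before and after the late operation, so late ND names the group and not a state of its lymph nodes at sampling. The untreated group lacked both the antibody and the operation, so differences from it do not separate these factors. That the untreated mice carried tumors rests on the labels and could not be checked in these data.

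Dendritic cells take up antigen in tissues and present it to T cells. Conventional type 1 dendritic cells (cDC1s) present antigen from other cells to CD8 T cells and depend on the transcription factors Batf3 and Irf8, while type 2 cells (cDC2s) mainly serve CD4 T cells, and plasmacytoid dendritic cells (pDCs) depend on Tcf4 and release type I interferon. All are rare in blood, where B cells, monocytes and neutrophils express some of the same genes, and the question here is whether their transcripts differed between the treatment sequences and which dendritic cell type they named.

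Cd209a and Flt3 were higher in the blood of late ND mice than in that of early ND or untreated mice, and they were the members that passed the test. Cd209a encodes a C-type lectin of cDC2s and monocyte-derived dendritic cells, and Flt3 is the growth factor receptor on which dendritic cell development depends. Neither the cDC1 genes Xcr1, Clec9a, Batf3 and Irf8 nor the pDC genes Siglech, Tcf4 and Ccr9 passed where they were tested at this depth. Batf3 and Siglech were too sparse to test between early ND and untreated mice, and Zbtb46 in any pair of groups. The members' data were thin, and the depth sets how far each of these statements reaches.

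Depth and blood composition differed between the groups. Between 5862888 and 10796099 read pairs per library fell on genes in untreated mice, between 5527108 and 7182346 in early ND mice and between 7849602 and 13924361 in late ND mice. Hemoglobin genes took 31.6% to 61.7%, 38.3% to 64.1% and 14.9% to 29.3% of them. CPM below are counts scaled to a common library size by the trimmed mean of M values (TMM), and on that scale 1 count was worth 0.401 CPM in untreated 1 and 0.0399 CPM in late ND 2, the extremes. In 3 libraries, untreated 2, late ND 2 and late ND 3, the 18S ribosomal RNA gene Rn18s-rs5 was at 313 to 766 CPM of the library total, against 13400 or more in the others. Another 3, untreated 5, early ND 3 and late ND 5, had skin and sebaceous gland markers summing to 614 to 1116 TMM CPM, against 228 or less in the others. Markers of B cells, T cells, NK cells, monocytes, neutrophils and erythroid cells were detected in every group. In such a mixture, fewer cells of a type and less RNA per cell cannot be told apart.

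The members took 303 to 1424 counts per library in untreated mice, 366 to 1275 in early ND mice and 1586 to 3677 in late ND mice. Irf8 and Tcf4, which B cells and other blood cells also express, made up 69.8% to 82.0% of these. Of the 150 values (10 genes in 15 libraries), 28 were under 10 counts, with 14 of them in early ND mice, 12 in untreated mice and 2 in late ND mice. Zbtb46 was under 10 counts in 8 libraries, Batf3 and Siglech in 6 each and Xcr1 in 5, whereas Irf8, Tcf4 and Ccr9 never were. Early ND 4 held 7 of the 10 members under 10 counts. In the raw counts, late ND mice lay entirely above early ND mice for 7 members, but so did 68.3% of all genes tested, and raw counts are therefore given for their precision and not as a comparison.

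**Figure D1:**
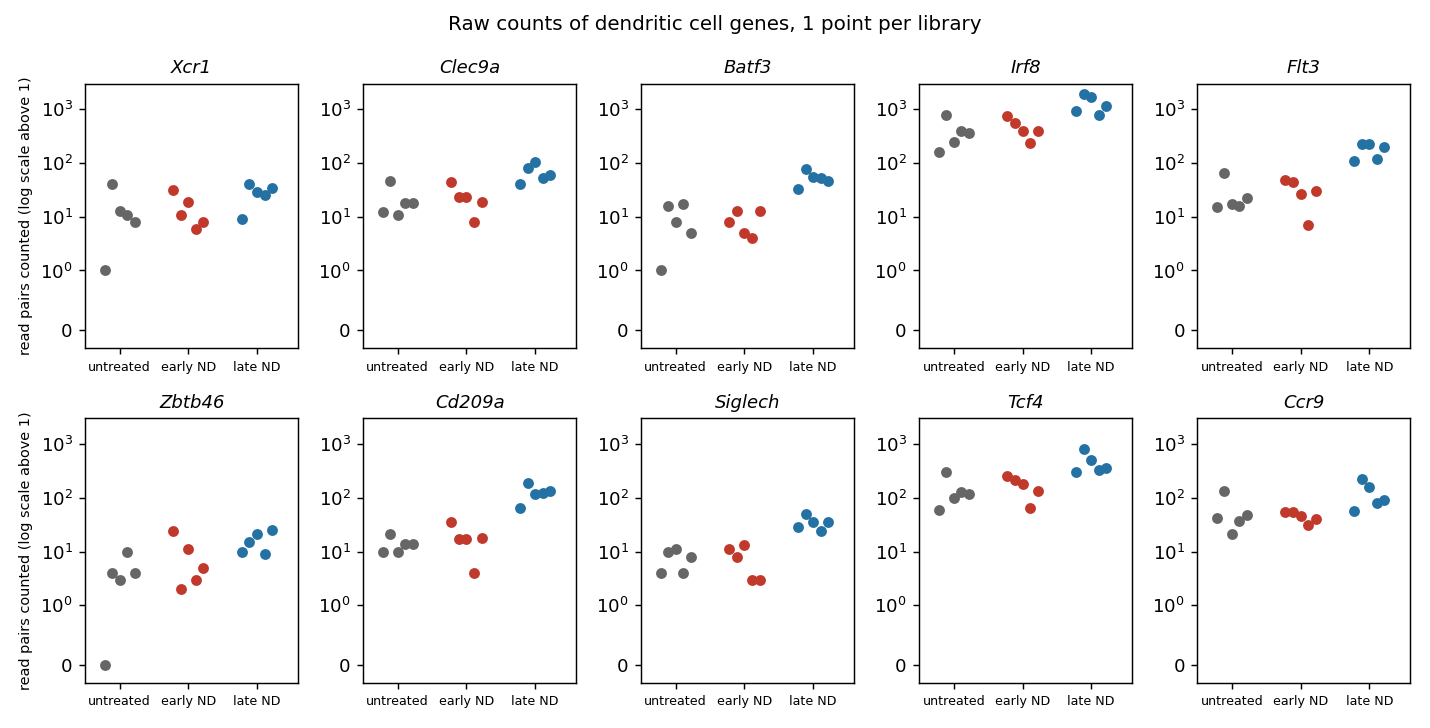
Raw counts (read pairs, log scale above 1) of each member in untreated, early ND and late ND mice, with 1 point per library in the order of the replicate numbers. Xcr1, Batf3, Siglech and Zbtb46 lie at 40 counts or fewer in all untreated and early ND libraries, and the late ND points are higher for most members, as they were for most genes.

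The stretches of 250 bases before the transcription starts of 3 members are shown because these genes stand for the 3 kinds of cell compared: Xcr1 for cDC1s, Cd209a for cDC2s and monocyte-derived cells, and Siglech for pDCs. Capitals mark the E-box letters CANNTG, the general motif of the basic helix-loop-helix factors to which Tcf4 belongs, which read the same pattern on both strands. The sequences are from RefSeq (table of GRCm38.p6) and were placed by an exact, single match in GRCm39, at chr9:123691095-123691344 (minus strand) for Xcr1, chr8:3798985-3799234 (minus strand) for Cd209a and chr7:55417682-55417931 (plus strand) for Siglech.
Xcr1: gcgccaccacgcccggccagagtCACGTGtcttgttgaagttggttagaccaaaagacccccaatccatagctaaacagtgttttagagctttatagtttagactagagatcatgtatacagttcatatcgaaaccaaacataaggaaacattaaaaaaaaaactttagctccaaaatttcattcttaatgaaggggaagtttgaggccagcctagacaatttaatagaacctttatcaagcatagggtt
Cd209a: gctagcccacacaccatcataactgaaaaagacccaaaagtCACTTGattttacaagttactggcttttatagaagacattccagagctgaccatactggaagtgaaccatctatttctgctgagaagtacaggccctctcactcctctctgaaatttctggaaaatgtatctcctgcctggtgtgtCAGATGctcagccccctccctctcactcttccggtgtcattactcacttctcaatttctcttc
Siglech: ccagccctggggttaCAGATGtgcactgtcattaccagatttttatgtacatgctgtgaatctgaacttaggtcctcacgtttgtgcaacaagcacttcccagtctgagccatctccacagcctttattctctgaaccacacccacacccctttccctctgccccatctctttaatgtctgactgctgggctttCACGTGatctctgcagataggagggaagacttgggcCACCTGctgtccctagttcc
The Xcr1 window held 1 such motif, the Cd209a window 2 and the Siglech window 3. The motif stood in at least 1 window of each of the 9 members with an entry, but also in 66.2% of all 32851 windows of this length, so its presence sets none of them apart. The narrower letters CAGGTG were found, on either strand, before Siglech, Ccr9, Irf8 and Zbtb46 and in 17.2% of all windows. The letters TGANTCA, a motif of AP-1 factors, the family to which Batf3 belongs, were found before Zbtb46 and in 6.75% of all windows. A match describes these letters and names no bound factor.

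Xcr1 encodes the chemokine receptor by which cDC1s respond to Xcl1, and it lies at chr9:123681380-123691094 on the minus strand of GRCm39, with no other annotated gene over its exons. Its counts were 1, 40, 13, 11 and 8 in untreated mice 1 to 5. They were 32, 11, 19, 6 and 8 in early ND mice 1 to 5 and 9, 41, 29, 25 and 35 in late ND mice 1 to 5. The levels were 0.401, 2.775, 3.73, 1.85 and 1.29 CPM in untreated mice, 4.06, 1.82, 2.59, 2.16 and 1.74 CPM in early ND mice and 0.814, 1.64, 1.27, 1.84 and 2.20 CPM in late ND mice. Of the late ND mice, 3 lay below every early ND mouse, and the groups overlapped. The means were 2.01 ± 1.29 (SD, n = 5), 2.47 ± 0.950 (SD, n = 5) and 1.55 ± 0.534 CPM (SD, n = 5) for untreated, early ND and late ND mice. The log2 fold change of late ND against early ND was -0.67 (SE 0.32), a ratio of 0.627 with a 95% interval of 0.385 to 1.02, and it did not pass (edgeR quasi-likelihood test, unadjusted p of 0.0593, adjusted p = 0.232). Against untreated mice it was -0.42 (SE 0.40, adjusted p = 0.676), and early ND against untreated mice gave 0.27 (SE 0.41, adjusted p = 0.959). The single count in untreated 1 had an exact Poisson interval of 0.0101 to 2.23 CPM, which includes the late ND mean and ends below the early ND mean.

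Clec9a encodes the receptor by which cDC1s sense dead cells (chr6:129385825-129401726, plus strand). It had 12, 47, 11, 18 and 18 counts in untreated mice, 45, 23, 23, 8 and 19 in early ND mice and 40, 82, 106, 52 and 60 in late ND mice. Its levels overlapped between all groups, at 3.43 ± 0.783 (SD, n = 5), 3.93 ± 1.11 (SD, n = 5) and 3.83 ± 0.498 CPM (SD, n = 5) for untreated, early ND and late ND mice. The log2 fold change of late ND against early ND was -0.04 (SE 0.21), with a 95% interval of -0.50 to 0.42 (edgeR, adjusted p = 0.939). Against untreated mice late ND gave 0.20 (SE 0.20, adjusted p = 0.693) and early ND 0.26 (SE 0.25, adjusted p = 0.94). The annotation limits what these reads can be credited to. Of the exon bases of Clec9a, 77.1% lie opposite exons of Clec1a, and 184 are shared on the same strand with Clec1b, a platelet gene with 517 to 4370 counts per library. The strand setting of the counting is not given in the sources used here, so reads of Clec9a and Clec1a may not have been told apart, although Clec1a itself had 27 counts or fewer in every library. The Clec9a count was 1.25% to 2.21% of the Clec1b count in untreated mice, 1.38% to 2.54% in early ND mice and 2.37% to 2.98% in late ND mice. The part of Clec1b reads in the Clec9a count was not tested.

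Batf3, the transcription factor on which cDC1 development depends (chr1:190830044-190841142, plus strand), had 1, 16, 8, 17 and 5 counts in untreated mice. It had 8, 13, 5, 4 and 13 counts in early ND mice and 33, 78, 54, 53 and 47 in late ND mice. After scaling, most late ND mice still stood above the others. The levels were 0.401, 1.11, 2.29, 2.86 and 0.804 CPM in untreated mice, 1.02, 2.15, 0.682, 1.44 and 2.83 CPM in early ND mice and 2.985, 3.12, 2.36, 3.90 and 2.96 CPM in late ND mice. The means were 1.495 ± 1.04 (SD, n = 5), 1.62 ± 0.868 (SD, n = 5) and 3.06 ± 0.552 CPM (SD, n = 5). In both comparisons 4 of 5 late ND mice lay above every mouse of the other group, with late ND 3 as the exception. The log2 fold change was 0.98 (SE 0.34) against early ND mice, a ratio of 1.98 with a 95% interval of 1.19 to 3.28, and it did not pass over all genes (edgeR, unadjusted p of 0.0125, adjusted p = 0.103). Against untreated mice it was 1.01 (SE 0.38, unadjusted p of 0.0187, adjusted p = 0.186 by edgeR), and both comparisons share the late ND libraries. Early ND and untreated mice were not tested for Batf3, since the gene missed the filter on low counts there, and with the filter lifted the fold change was 0.06 (SE 0.54, adjusted p = 0.998). Batf3 thus passed the filter only in pairs with the late ND libraries, the group where it was high. Its intervals and unadjusted p-values are therefore descriptive. With the filter lifted, late ND gave 1.06 over early ND mice (SE 0.35, edgeR, adjusted p = 0.095).

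Irf8, which both cDC1s and pDCs require and which B cells and monocytes also express (chr8:121463096-121485659, plus strand), was the most abundant member. It had 159 to 791 counts in untreated mice, 235 to 762 in early ND mice and 793 to 1955 in late ND mice. The levels were 63.7, 54.9, 70.0, 66.7 and 57.1 CPM in untreated mice, 96.7, 90.5, 53.6, 84.5 and 86.8 CPM in early ND mice and 84.2, 78.1, 72.8, 58.4 and 70.95 CPM in late ND mice. In the early ND group, 4 mice lay above every untreated mouse and early ND 3 lay below them all. The early ND against untreated fold change of 0.40 (SE 0.15) had an unadjusted p of 0.0219 and did not pass over all genes (edgeR, adjusted p = 0.938). Late ND gave 0.23 (SE 0.12, adjusted p = 0.383) against untreated mice and -0.15 (SE 0.16, adjusted p = 0.633) against early ND mice. With library totals in place of TMM the last value was 0.72, below the 0.86 by which that scaling moved the median of all genes, and Clec9a, Tcf4, Ccr9 and Xcr1 likewise turned positive against early ND mice but stayed under that shift.

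Flt3 (chr5:147267551-147337483, minus strand) is carried by dendritic cell precursors and by conventional and plasmacytoid dendritic cells. It had 15, 64, 17, 16 and 22 counts in untreated mice, 49, 44, 26, 7 and 30 in early ND mice and 109, 229, 227, 120 and 202 in late ND mice. The levels were 6.01, 4.44, 4.88, 2.696 and 3.54 CPM in untreated mice, 6.22, 7.265, 3.55, 2.52 and 6.53 CPM in early ND mice and 9.86, 9.15, 9.91, 8.83 and 12.7 CPM in late ND mice. Every late ND mouse stood above every other mouse, with late ND 5 the highest. The means were 4.31 ± 1.27 (SD, n = 5), 5.21 ± 2.06 (SD, n = 5) and 10.1 ± 1.54 CPM (SD, n = 5). Flt3 rose in late ND mice by a log2 fold change of 0.94 (SE 0.23) over early ND mice, a ratio of 1.92 with a 95% interval of 1.35 to 2.73 (edgeR, adjusted p = 0.0413). Over untreated mice it rose by 1.28 (SE 0.20), a ratio of 2.42 with an interval of 1.79 to 3.27 (edgeR, adjusted p = 0.0242). Early ND mice differed from untreated mice by 0.34 (SE 0.31, adjusted p = 0.94). Of the exon bases of Flt3, 4.62% lie opposite Gm26597.

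Cd209a (chr8:3793397-3798984, minus strand) is free of overlapping exons. It had 10, 21, 10, 14 and 14 counts in untreated mice, 36, 17, 17, 4 and 18 in early ND mice and 65, 186, 119, 123 and 133 in late ND mice. The levels were 4.01, 1.46, 2.87, 2.36 and 2.25 CPM in untreated mice, 4.57, 2.81, 2.32, 1.44 and 3.92 CPM in early ND mice and 5.88, 7.43, 5.195, 9.055 and 8.37 CPM in late ND mice. Again the late ND mice did not overlap with either group, their lowest value of 5.195 CPM being above the highest elsewhere, 4.57 CPM in early ND 1. The means were 2.59 ± 0.941 (SD, n = 5), 3.01 ± 1.25 (SD, n = 5) and 7.19 ± 1.63 CPM (SD, n = 5). Cd209a rose in late ND mice by 1.22 (SE 0.27) on the log2 scale over early ND mice, a ratio of 2.33 with a 95% interval of 1.57 to 3.48 (edgeR, adjusted p = 0.0267). Over untreated mice it rose by 1.60 (SE 0.26), a ratio of 3.03 with an interval of 2.04 to 4.51 (edgeR, adjusted p = 0.0242). Early ND against untreated mice gave 0.37 (SE 0.35, adjusted p = 0.94).

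**Figure D2:**
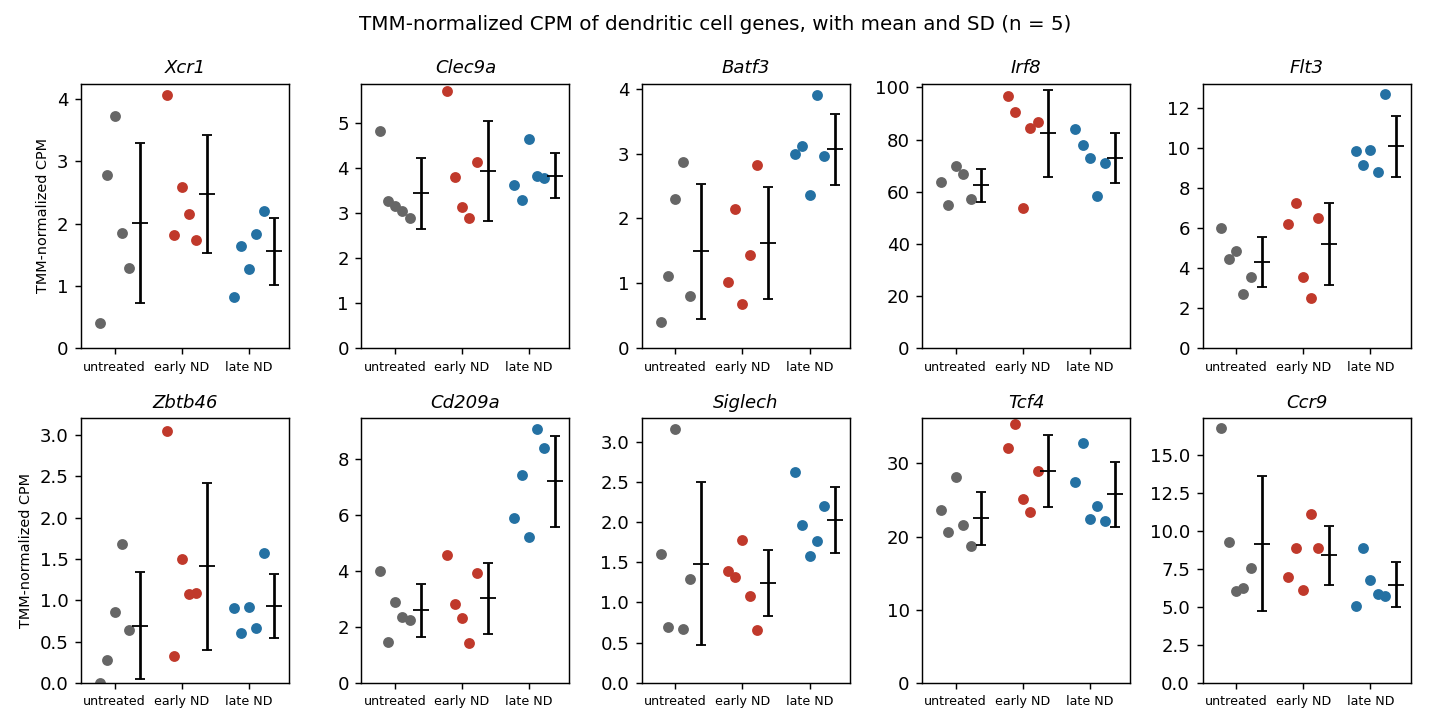
TMM-normalized CPM of each member (linear axes from 0) in untreated, early ND and late ND mice, with 1 point per library and the mean with SD (n = 5) beside it. For Flt3 and Cd209a the 5 late ND points lie above all others, at 8.83 to 12.7 and 5.195 to 9.055 CPM, and for the other members the groups overlap.

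Cd209a and Flt3 were thus 2 of the 9 members tested in late ND against early ND mice. Over all 13315 genes tested there, 4.98% passed, 2.50% being higher and 2.48% lower in late ND mice, and 5.91% had groups that did not overlap. They were also the 2 of 9 that passed between late ND and untreated mice, where 3.0% of 13547 genes passed, 0.989% being higher and 2.01% lower, and 5.48% had groups that did not overlap. The pair of comparisons shares the 5 late ND libraries and is not a repeat. Of the 7 members tested between early ND and untreated mice 0 passed, with 2 at an unadjusted p under 0.05 by edgeR and likewise 0 and 2 by DESeq2, while 0% of 12151 genes passed and 4.44% had such an unadjusted p.

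The calls of Cd209a and Flt3 lay near the threshold, while the fold changes kept their direction. Without the 3 libraries poor in Rn18s-rs5 sequence, Cd209a differed from early ND mice by 1.31 (edgeR, adjusted p = 0.0561) and Flt3 by 0.97 (adjusted p = 0.0871), and from untreated mice by 1.48 (adjusted p = 0.107) and 1.35 (adjusted p = 0.122), while 4 and 0 genes passed in all. Without early ND 3 and late ND 5, the libraries high in skin markers, Cd209a differed from early ND mice by 1.02 (adjusted p = 0.0503) and Flt3 by 0.68 (adjusted p = 0.0781). Against untreated mice, leaving out untreated 5 and late ND 5 gave 1.56 (adjusted p = 0.0179) and 1.13 (adjusted p = 0.0138), both still past the threshold. With single libraries left out, the fold change over early ND mice ran from 1.10 to 1.44 for Cd209a (edgeR, adjusted p from 0.0153 to 0.0765) and from 0.81 to 1.08 for Flt3 (adjusted p from 0.0398 to 0.0896). The Cd209a call was lost without early ND 2, early ND 4, late ND 4 or late ND 5, and the Flt3 call without early ND 1, early ND 4, late ND 1, late ND 3, late ND 4 or late ND 5. Over untreated mice the ranges were 1.39 to 1.76 for Cd209a and 1.15 to 1.38 for Flt3, and both calls were lost without untreated 3 or without any 1 late ND library (highest adjusted p = 0.0712).

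Monocyte markers moved alongside both genes. The 8 monocyte markers summed to 406 to 680 TMM CPM in untreated mice, 381 to 874 in early ND mice and 705 to 1060 in late ND mice, and all 8 had positive fold changes in late ND mice in both comparisons. Over early ND mice 2 of the 8 passed, beside 2.50% of all genes tested, with fold changes of 0.15 to 1.71 over the list. Over untreated mice 3 of the 8 passed, beside 0.989% of all genes, with fold changes of 0.28 to 1.47. Among those that passed, Csf1r, the receptor of a monocyte growth factor, rose over early ND mice by 0.75 (SE 0.19, edgeR, adjusted p = 0.0425). Over untreated mice Ccr2 (1.11, SE 0.18, adjusted p = 0.0242) and Csf1r (0.73, SE 0.16, adjusted p = 0.0322) were among them. Early ND 5, the early ND mouse with the most monocyte signal (874 CPM), had 3.92 CPM of Cd209a and 6.53 CPM of Flt3, the second highest values of its group and below those of every late ND mouse. The part of monocytes in the rise of Cd209a and Flt3 was not tested. The 8 B cell markers summed to 746 to 1110, 839 to 1474 and 465 to 1362 TMM CPM in the 3 groups. By edgeR 0 of them passed in any comparison, nor did any reach an unadjusted p under 0.05. All 8 had negative fold changes in both late ND comparisons and positive ones in early ND against untreated mice. All 8 T cell markers were likewise negative in both late ND comparisons. By edgeR, 2 and 7 had an unadjusted p under 0.05 against early ND and untreated mice, beside 23.8% and 17.0% of all genes in either direction. Against untreated mice 1 passed (edgeR, adjusted p = 0.0274), beside 2.01% of all genes lower. The part of lymphocytes in the member levels was not tested.

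**Figure D3:**
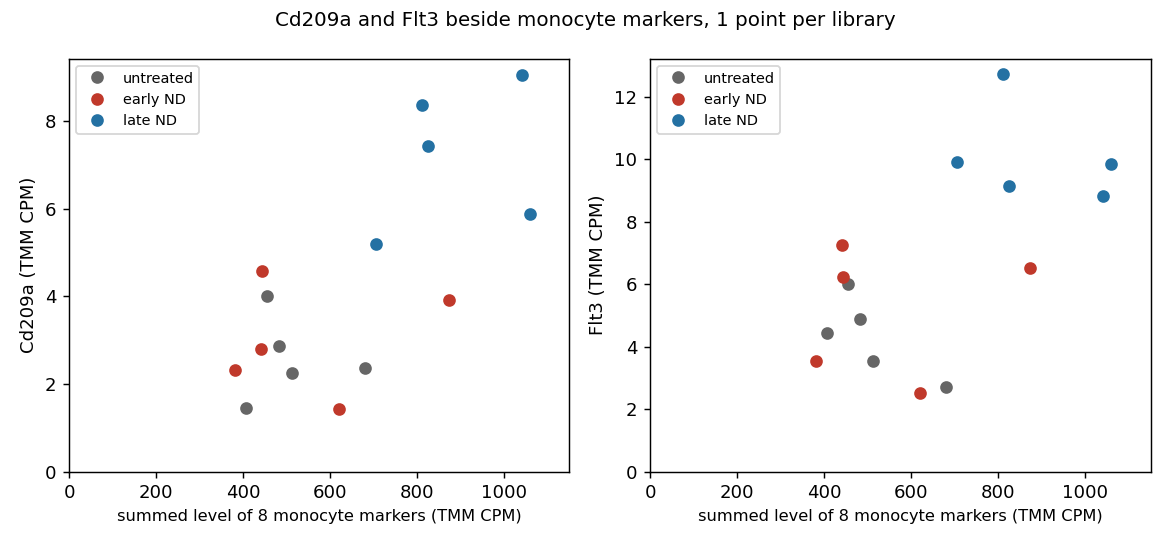
Cd209a (left) and Flt3 (right) in TMM CPM against the summed TMM CPM of 8 monocyte markers, with 1 point per library. The late ND points lie to the upper right, and early ND 5, with 874 CPM of monocyte markers, is second highest of its group for both genes.

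Zbtb46, a transcription factor of conventional dendritic cells (chr2:181012111-181104879, minus strand), was too sparse to test in any pair of groups. It had 0, 4, 3, 10 and 4 counts in untreated mice, 24, 2, 11, 3 and 5 in early ND mice and 10, 15, 21, 9 and 25 in late ND mice. The 0 in untreated 1 allows a level of up to 1.20 CPM (3 counts, counting error alone), above the mean of that group and of late ND mice. Mean levels were 0.693 ± 0.645 (SD, n = 5), 1.41 ± 1.01 (SD, n = 5) and 0.931 ± 0.386 CPM (SD, n = 5), and early ND 1 was the highest with 3.05 CPM. With the filter lifted, late ND differed from early ND mice by -0.56 (SE 0.48, edgeR, adjusted p = 0.625) and from untreated mice by 0.43 (SE 0.57, adjusted p = 0.755). A difference in this gene was not detectable at this depth.

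Siglech, a surface lectin of pDCs (chr7:55417926-55429195, plus strand), had 4, 10, 11, 4 and 8 counts in untreated mice. It had 11, 8, 13, 3 and 3 counts in early ND mice and 29, 49, 36, 24 and 35 in late ND mice. The levels were 1.60, 0.694, 3.155, 0.674 and 1.29 CPM in untreated mice, 1.40, 1.32, 1.77, 1.08 and 0.653 CPM in early ND mice and 2.62, 1.96, 1.57, 1.77 and 2.20 CPM in late ND mice. Of the late ND mice, 3 lay above every early ND mouse, and untreated 3 was the highest of all. The log2 fold change of late ND against early ND mice was 0.66 (SE 0.29), a ratio of 1.58 with an interval of 1.03 to 2.43, which did not pass (edgeR, unadjusted p of 0.0393, adjusted p = 0.184). Against untreated mice it was 0.62 (SE 0.40, adjusted p = 0.477), and early ND against untreated mice was not tested for low counts. Siglech, like Batf3, passed the filter only in pairs with the late ND libraries, so its interval and unadjusted p are descriptive.

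Tcf4, the factor that specifies pDCs and is also made by B cells (chr18:69476427-69822150, plus strand), had 59 to 297, 65 to 253 and 304 to 820 counts in untreated, early ND and late ND mice. Its levels of 22.5 ± 3.61 (SD, n = 5), 29.0 ± 4.92 (SD, n = 5) and 25.8 ± 4.45 CPM (SD, n = 5) overlapped. Late ND gave -0.14 (SE 0.15, edgeR, adjusted p = 0.616) against early ND and 0.22 (SE 0.15, adjusted p = 0.514) against untreated mice, and early ND against untreated mice gave 0.38 (SE 0.15, unadjusted p of 0.022, adjusted p = 0.938). Ccr9, a chemokine receptor of pDCs that T cells and some other cells also carry (chr9:123507181-123613395, plus strand), had 21 to 134, 31 to 55 and 56 to 222 counts. Its levels were 16.8, 9.295, 6.02, 6.23 and 7.55 CPM in untreated mice, 6.98, 8.92, 6.14, 11.2 and 8.92 CPM in early ND mice and 5.07, 8.87, 6.81, 5.89 and 5.73 CPM in late ND mice. Late ND mice were the lowest on average, at 6.47 ± 1.48 CPM (SD, n = 5), with fold changes of -0.31 (SE 0.20, edgeR, adjusted p = 0.397) and -0.44 (SE 0.27, adjusted p = 0.453) that did not pass. Siglech and Ccr9, both read as pDC genes, thus lay on opposite sides of 0, and Tcf4 had no one direction. Of the Ccr9 exon bases, 22.4% lie opposite Gm17021 and Slc6a20a, at 22 and 3 counts or fewer per library, and 592 are shared on the same strand with Gm17200, at 50 counts or fewer.

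**Figure D4:**
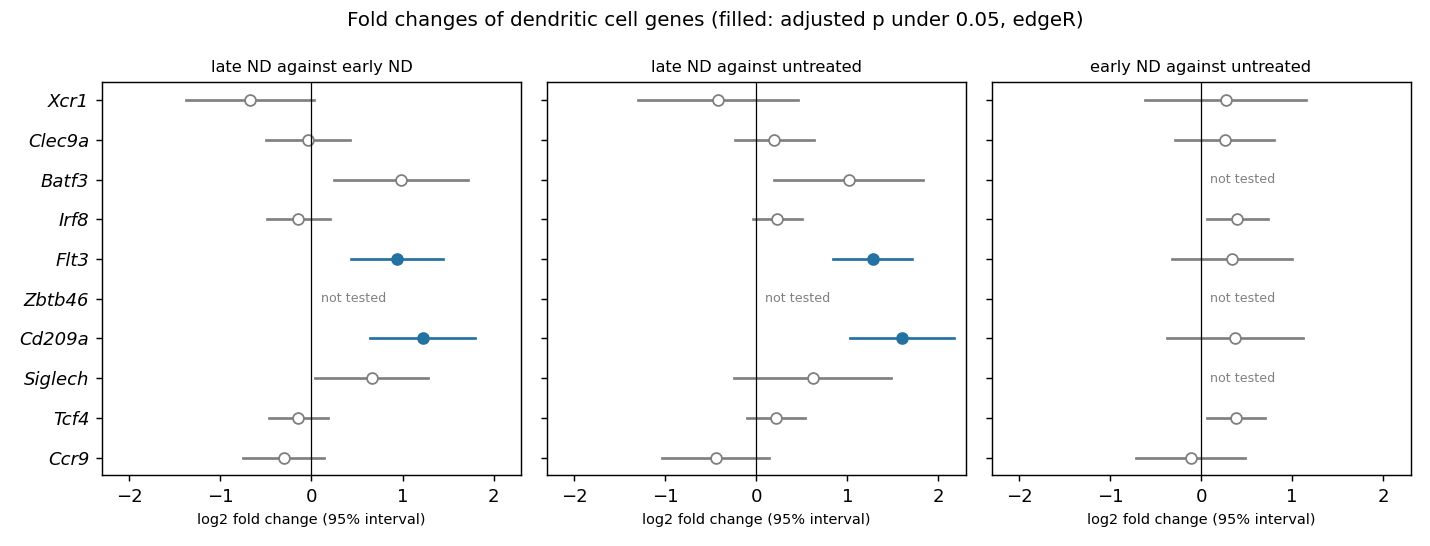
Log2 fold changes with 95% intervals (edgeR) of the members in late ND against early ND, late ND against untreated and early ND against untreated mice, where filled points passed at an adjusted p under 0.05 over all genes tested. Flt3 (0.94 and 1.28) and Cd209a (1.22 and 1.60) are filled in both late ND comparisons, and members left out by the filter on low counts are marked as not tested.

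The balance of cDC1 and pDC reads was taken within each library, where no scaling between libraries enters. The counts of Xcr1, Clec9a and Batf3 together were set over those of Siglech and Ccr9, with 0.5 added to each sum. Irf8 and Tcf4 were left out because other blood cells express them. Ccr9 stayed in, although T cells and some other cells also carry it. Summed over untreated, early ND and late ND mice, Ccr9 had 281, 226 and 605 counts, against 37, 38 and 173 for Siglech. The ratio was thus mostly one of cDC1 reads to Ccr9 reads. The log2 ratio was -1.68, -0.48, 0, 0.16 and -0.82 in untreated mice, 0.36, -0.40, -0.30, -0.90 and -0.14 in early ND mice and -0.05, -0.43, -0.02, 0.32 and 0.17 in late ND mice. The group means of -0.56 ± 0.74 (SD, n = 5), -0.27 ± 0.46 (SD, n = 5) and -0.0024 ± 0.28 (SD, n = 5) differed by less than the spread in untreated mice. The ratio depends on its genes. Without Clec9a, whose reads are uncertain, it was -1.75 ± 1.51 (SD, n = 5), -1.22 ± 0.37 (SD, n = 5) and -0.89 ± 0.35 (SD, n = 5), and with Irf8 and Tcf4 added to the sums the means were 1.08, 1.21 and 1.25.

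Xcr1 and Siglech are the members most restricted to cDC1s and pDCs, and their counts in the same library were set side by side after their values had been seen. Xcr1 had more counts than Siglech in 5 of 5 early ND mice and in 3 of 5 untreated mice, with equal counts in untreated 5. In late ND mice Siglech had more counts in 3, the counts were equal in late ND 5 (35 and 35), and Xcr1 led by 1 count in late ND 4 (25 and 24). Summed over the mice of a group, Xcr1 and Siglech had 73 and 37 counts in untreated mice, 76 and 38 in early ND mice and 139 and 173 in late ND mice. The log2 ratio of the counts was 0.39 ± 1.36 (SD, n = 5), 0.93 ± 0.46 (SD, n = 5) and -0.43 ± 0.69 (SD, n = 5), and the early ND values, from 0.44 to 1.499, lay above the late ND values, from -1.64 to 0.06. No test is given, because this pair was picked for its difference, and within the late ND group late ND 1, with 9 and 29 counts, had the largest gap.

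**Figure D5:**
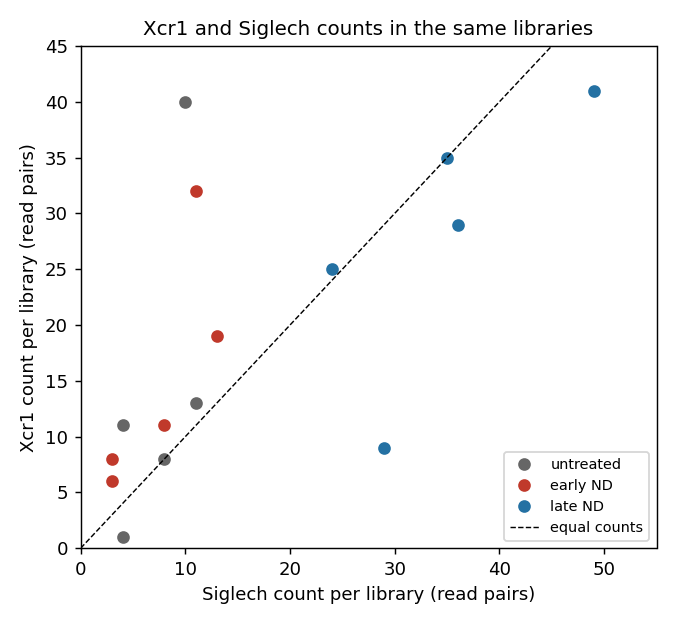
Xcr1 counts against Siglech counts in the same library (read pairs, linear axes), with a dashed line at equal counts. All 5 early ND points lie above the line, and of the late ND points 3 lie below it, 1 on it and 1 above it by 1 count.

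Levels were compared between the genes per kilobase of the canonical transcript, over all 15 libraries. Irf8 led with 14.3 ± 2.71 CPM per kb (SD, n = 15), its lowest library at 10.6 being above the highest value of any other member, 6.11 for Cd209a. Cd209a followed with 2.88 ± 1.66, Tcf4 with 2.87 ± 0.543, Batf3 with 2.57 ± 1.34, Flt3 with 1.79 ± 0.832 and Ccr9 with 1.54 ± 0.571. Clec9a with 1.16 ± 0.251, Siglech with 0.727 ± 0.326, Xcr1 with 0.452 ± 0.221 and Zbtb46 with 0.190 ± 0.139 closed the order. The place of Cd209a came from the late ND mice, where it was at 4.85 ± 1.10 CPM per kb (SD, n = 5). In untreated mice its mean of 1.75 lay below those of Tcf4 (2.51), Batf3 (1.87) and Ccr9 (1.77), and in early ND mice its mean of 2.03 lay below that of Tcf4 (3.23). Below Irf8 the ranges of mean ± SD overlapped between all neighbours. Taken over all annotated exons instead, Irf8 and Cd209a kept the top places and Zbtb46 the last, while Tcf4 moved to place 6 and Clec9a to place 4. The lengths were not corrected for exon bases that overlap other genes, as in Clec9a and Ccr9. The effect on their places was not tested.

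The genes most like a member were found for the 5 members with a mean of at least 50 counts, by Pearson correlation of log2 CPM over the 15 libraries among 9453 genes. These libraries share groups, depth and composition, so the values describe the pattern and carry no test. Cd209a was nearest to Clec10a (r = 0.90, rho = 0.89), a lectin of cDC2s and macrophages, then to Flt3 (r = 0.88, rho = 0.87), and then to Slc43a2, Apoe and Pid1 (r = 0.86 to 0.87). Flt3 was nearest to Mark4 (r = 0.88, rho = 0.87) and Cd209a, followed by Arsa, Slc15a4 and Srsf9 (r = 0.81 to 0.86). Irf8 was nearest to Arhgap17 (r = 0.88, rho = 0.86) and to Cd180 (r = 0.87, rho = 0.84), a receptor of B cells, followed by Mycbp2, Cdk5rap3 and Zfp398 (r = 0.81 to 0.83). Tcf4 was nearest to Rel (r = 0.90, rho = 0.85), followed by Lamb3, Mycbp2, Slc4a7 and Tnfrsf13b (r = 0.79 to 0.84). Ccr9 was nearest to Cnot2 (r = 0.84, rho = 0.79), followed by Cbx1, Eif3g, Pkig and Timeless (r = 0.83 to 0.84).

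Other genes of these cell types were described from 6 lists of 71 genes. Of 59 tested between late ND and early ND mice, 5 were higher and 1 lower, against 2.50% and 2.48% of all genes tested, and their median log2 fold change was 0.05, beside 0.01 for all genes. Between late ND and untreated mice 2 were higher and 1 lower of 59, against 0.989% and 2.01% of all genes, with medians of 0.16 and 0.0023. By edgeR 0 of 55 passed between early ND and untreated mice, with 2 at an unadjusted p under 0.05 (Kmo and Tcf3), and DESeq2 also gave 0 (1 at an unadjusted p under 0.05).

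Among other cDC2 genes, 4 of 8 rose in late ND over early ND mice and 0 fell. They were Clec10a, by 1.15 (SE 0.30, edgeR, adjusted p = 0.0475), Sirpa, an inhibitory receptor of cDC2s and other myeloid cells, by 0.86 (SE 0.19, adjusted p = 0.0274), Notch2, a receptor on which some cDC2s depend, by 0.62 (SE 0.15, adjusted p = 0.0354), and Itgam, the integrin chain CD11b, by 0.94 (SE 0.25, adjusted p = 0.0492). Of the Itgam exon bases, 67.4% are shared on the same strand with Gm49368, and the effect of this on its count was not tested. Sirpa, Notch2 and Itgam are also expressed by monocytes and neutrophils, and neutrophil markers moved alongside them over early ND mice. Of 8 neutrophil markers 7 had positive fold changes over early ND mice, all 7 at an unadjusted p under 0.05, with a median of 1.14 over the list, and 1 passed, Mmp8, with 1.81 (SE 0.48, edgeR, adjusted p = 0.0496). Over all genes tested in that comparison, 23.8% had such an unadjusted p in either direction. Over untreated mice, 5 neutrophil markers had positive and 3 negative fold changes. Their median was 0.19, and 0 reached an unadjusted p under 0.05 by edgeR. All 9 cDC2 genes tested over untreated mice had positive fold changes. By edgeR 5 of them had an unadjusted p under 0.05, beside 17.0% of all genes in either direction. The part of neutrophils in these differences was not tested. Clec10a had 3 to 39 counts in early ND mice and 74 to 204 in late ND mice, with mean levels of 3.03 ± 1.38 (SD, n = 5) and 7.04 ± 2.04 CPM (SD, n = 5). Over untreated mice Clec10a rose by 1.39 (SE 0.32, edgeR, adjusted p = 0.0412), the only 1 of 9 cDC2 genes to pass.

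Among other cDC1 genes, 1 of 11 rose and 1 fell in late ND mice in both comparisons. Naaa, a lysosomal amidase, rose by 0.93 (SE 0.22, edgeR, adjusted p = 0.0354) over early ND and by 0.87 (SE 0.18, adjusted p = 0.0297) over untreated mice. It had 837 to 1369 counts in late ND mice, far more than Xcr1, Clec9a or Batf3, and which cells carried it was not tested. Cd24a fell by 1.66 (SE 0.34, edgeR, adjusted p = 0.0225) and by 1.84 (SE 0.33, adjusted p = 0.0242) on the log2 scale. Cd24a is also expressed by red cell precursors and B cells, and it had 2535 to 6952 counts per library, far more than any cDC1 member. All 6 erythroid markers had negative fold changes in late ND mice in both comparisons, with medians of -2.54 and -2.56. By edgeR 6 passed against early ND mice and 5 against untreated mice. The part of these cells in the Cd24a difference was not tested.

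Over all genes tested by edgeR, 23.8% had an unadjusted p under 0.05 between late ND and early ND mice. Between late ND and untreated mice 17.0% did. Among other pDC genes 0 of 12 passed in either late ND comparison by edgeR, with 3 and 4 at an unadjusted p under 0.05. By DESeq2 Irf7 passed against early ND mice, being lower on average in late ND mice (89.7 against 228 CPM). Tlr9 passed against untreated mice, being higher on average in late ND mice (14.5 against 9.11 CPM). The smallest p over early ND mice was that of Runx2, a transcription factor of pDCs, with 0.58 (SE 0.19, adjusted p = 0.0855). Of 13 pan-DC and maturation genes 0 passed by edgeR against early ND mice, with 4 at an unadjusted p under 0.05, and DESeq2 called Fscn1 and Cd83. Fscn1, an actin bundler of mature dendritic cells, had the smallest p, with -1.79 (SE 0.49, edgeR, adjusted p = 0.0545) on counts of 8 to 66 in early ND and 11 to 25 in late ND mice. Partner transcription factors had 0 of 12 past the threshold by edgeR and 5 at an unadjusted p under 0.05, while DESeq2 called Bcl6, Spi1, Stat3 and Tcf12, and Stat3 came closest by edgeR with 0.69 (SE 0.19, adjusted p = 0.0516). Genes named here from DESeq2 alone, or from unadjusted p-values, were named after their values were seen.

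The ligands of the members' receptors did not pass. Of the 6 ligands and growth factors, 3 had enough counts to test, with 0 at an unadjusted p under 0.05 in any comparison by edgeR and 0 called by DESeq2. The smallest p over early ND mice belonged to Ccl25, the ligand of Ccr9, with 0.18 (SE 0.19, adjusted p = 0.626). Flt3l, the ligand of Flt3, named after its values were seen, was at 11.6 ± 3.74 (SD, n = 5), 11.7 ± 3.85 (SD, n = 5) and 10.75 ± 3.02 CPM (SD, n = 5) in untreated, early ND and late ND mice, and its fold change over early ND mice was -0.06 (SE 0.26, edgeR, adjusted p = 0.922). Xcl1, the ligand of Xcr1, had 14 counts or fewer in every library and was not tested.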

How the data were processed

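Peripheral blood RNA of 15 mice was sequenced as 150-base read pairs. Per the labels, reads were aligned to GRCm39 with STAR 2.7.9, sorted with SAMtools 1.7 and counted per gene with HTSeq-count 0.13.5, and the deposited values are raw counts without normalization. The labels name mm10 as well as GRCm39, and the annotation release and strand setting are not given in the sources used here. Identifiers were matched to GENCODE vM39, and 54749 of 55416 were found.

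Each comparison was fitted on its 10 libraries with edgeR 4.0.16 (R 4.3.3, filterByExpr filter, TMM factors, quasi-likelihood test, Benjamini-Hochberg over all genes tested, threshold 0.05). Levels are CPM with TMM factors over all 15 libraries. Standard errors are on the log2 scale, and Poisson intervals and limits of 3 counts cover counting error only. The code was tested on simulated counts. Alternatives were DESeq2 1.42.0, other scalings and filters, single libraries left out, a replicate block, and fits without libraries that stand apart. Nothing says that replicates came from more than 1 experiment, so p-values measure the spread between these mice. The replicate numbers were not used as pairs in the main fits, and the correlations given below do not settle whether they pair the samples. Identical counts were found in 0 library pairs.

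The members and the gene lists were chosen with earlier results of these data known. All members are named. Of the dendritic cell lists, genes past the threshold are named (up to 6 per list), or otherwise the gene with the smallest p over early ND mice. That rule also covered markers of other cells, which are given here mainly by sums and counts, and the values of some listed genes are not reported here. Of 137 listed symbols 136 were found. Lists of T cell, NK cell, neutrophil, erythroid and hemoglobin genes were summed as a check of the tissue.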

Additional observations from a re-analysis of the deposited data

Results flagged for a closer look

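A mouse whose level stood far from the other 4 of its group, by Dixon's criterion, was found in 3 of the 33 sets of 5 levels examined, where chance alone gives about 5% of such sets. Clec9a in untreated 1 was at 4.81 CPM on 12 counts, with the nearest mouse at 3.26 CPM. Irf8 in early ND 3 was at 53.6 CPM on 393 counts, below the nearest mouse at 84.5 CPM. Flt3 in late ND 5 was at 12.7 CPM on 202 counts, above the nearest mouse at 9.91 CPM. Early ND 3 and late ND 5 are 2 of the 3 libraries high in skin and sebaceous markers, and the part of those markers in these levels was not tested.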

How the results depend on the processing

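Cd209a and Flt3 were the 2 members called in both late ND comparisons with DESeq2, DESeq2 size factors, no filter, 1 fit of all 15 libraries, without hemoglobin genes and in the replicate block fit (2, 2 and 0 members and 6, 4 and 0 other dendritic cell genes in the 3 comparisons), and 0 were called between early ND and untreated mice in every setting. With library totals, which moved the median of all genes to 0.86 and 0.91, 6 and 7 members and 41 and 41 other dendritic cell genes passed, and fold changes against early ND mice turned to 0.12 (Xcr1), 0.76 (Clec9a), 0.72 (Irf8), 0.69 (Tcf4) and 0.61 (Ccr9), and against untreated mice to 0.45 (Xcr1) and 0.54 (Ccr9), all below that shift. Without libraries poor in Rn18s-rs5, 0 members and 0 other dendritic cell genes passed in either late ND comparison. Without libraries high in skin markers, chosen after seeing the data, 0 members and 13 other genes passed against early ND mice. DESeq2 called 14 and 6 other genes, and no filter called 15 against early ND mice and gave Clec9a 0.037. The shares of all genes that passed in these settings, or with single libraries left out, are not reported here. These counts therefore describe the settings and not the genes.

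With single libraries left out, 0 to 2 members passed in both late ND comparisons, and 0 to 14 and 0 to 4 other genes. Clec9a ran from -0.15 to 0.15, turning positive without early ND 1, and in early ND against untreated mice Xcr1 ran from -0.0095 to 0.49, negative without early ND 1, and Ccr9 from -0.23 to 0.15, positive without untreated 1. The cDC1 to pDC ratio of untreated, early ND and late ND mice became 1.08, 1.21 and 1.25 with Irf8 and Tcf4 in the sums, -1.75, -1.22 and -0.89 without Clec9a, and 0.39, 0.93 and -0.43 for Xcr1 over Siglech, the last 2 chosen after seeing the data. Of the alternative fold changes of the members, 429 kept their direction and side of the threshold, 28 no longer passed, 7 newly passed with their direction kept, and 11 changed sign, 2 of which newly passed. The causes were not tested. Same-numbered mice correlated above 0.1 in 1 of 5 pairs for late ND and early ND, 4 of 5 for late ND and untreated and 0 of 5 for early ND and untreated mice, and not every mouse matched its own number best. Depth limits Xcr1, Batf3, Siglech and Zbtb46 most, as 3 counts were worth up to 1.20 CPM.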
